A study of Mus musculus with 33 samples.

Results

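The step from D0.75 to D1.5 was examined in mouse cultures on their way from paraxial mesoderm (PM) to tendon or fibrocartilage cells, with the change common to both ligand conditions as the question. D0.75 (18 hours) and D1.5 (36 hours) count days of induction from the PM stage. Members were taken by their labels: the 6 libraries of D1.5 (CD1530 replicates 1 to 3 and AGN replicates 1 to 3) were set against the 6 libraries of D0.75 with the same ligands, which are 12 of the 33 libraries of the series. CD1530 is an agonist of retinoic acid receptor gamma. AGN 193109 is an inverse agonist, which strengthens the action of retinoic acid receptors as repressors. RNA of whole monolayer cultures was sequenced, and the deposited values are raw counts per gene.

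All 12 cultures came from embryonic stem cells of mice that carry ScxGFP, a reporter driven by the Scx promoter, and which of the study's reporter lines served for RNA sequencing is not given in the sources used here. All had been exposed during PM induction to the BMP inhibitor LDN-193189, the Wnt agonist CHIR and, in the scheme the study describes for these cultures, AGN 193109. From D0 of induction all received TGF-beta 1, FGF2 and the Smoothened agonist SAG, so the groups differ in ligand (CD1530 or AGN 193109) and time. The ligands were used at different concentrations, and the stem cells had been kept on feeder fibroblasts. The cultures were not sorted, so in these bulk values fewer cells of a type and less RNA per cell cannot be told apart.

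Tendon progenitors arise from the part of the somite next to the forming cartilage, and the transcription factor Scx marks them. TGF-beta and FGF signals raise Scx in such cells, and hedgehog signals drive the sclerotome, the somite compartment that gives cartilage. As tendon cells mature they lay down fibrillar collagen together with small leucine-rich proteoglycans such as fibromodulin (Fmod), which bind collagen and shape its fibrils.

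The 12 libraries held between 17509535 and 22775275 counts, and 16897 of 17120 genes passed the filter on low counts. Levels are given below as CPM, counts per 1000000 counts of a library whose size was scaled by TMM. Scx, the defining marker of the induced cells, was at 431 to 505 CPM in the D0.75 libraries, while the late tendon gene Tnmd stayed below the filter with at most 2 counts in any D0.75 library and 4 to 17 in the D1.5 libraries. One library stood apart. CD1530 D0.75 replicate 1 had a Pearson correlation of 0.9924 with both other replicates of its group, where the other 10 replicate pairs lay between 0.997 and 0.9976. It deviated along gene length: against the mean of its replicates it was higher by a median of 0.23 on the log2 scale in the fifth of genes with the shortest exons, and the fifth with the longest exons was at -0.28. Counts of gene lists that it moved are therefore also given without it.

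In both ligands together 5452 genes changed between D0.75 and D1.5, at an adjusted p under 0.05 in edgeR's quasi-likelihood test with ligand as a covariate. Of these, 2745 were higher and 2707 lower at D1.5, which are 16.2% and 16.0% of the genes tested. Most changes were small, with a median absolute log2 fold change of 0.33, and the median over all genes was 0.003. A log2 fold change of at least 1 was reached by 308 higher genes (1.82%) and 336 lower genes (1.99%). For 6.75% of genes all 6 D1.5 libraries lay above all 6 D0.75 libraries, and for 6.68% all lay below. Without CD1530 D0.75 replicate 1 the count was 6547, and 5248 of the 5452 genes (96.3%) were called again, all 5452 with the same direction.

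Each ligand was also examined on its own, with p-values from a fit of the 4 group means. In CD1530, 4468 genes changed, 2254 higher (13.3%) and 2214 lower (13.1%). In AGN 193109, 4126 genes changed, 2001 higher (11.8%) and 2125 lower (12.6%), and 6222 were called when CD1530 D0.75 replicate 1, which shares the estimate of the spread, was left out. Both steps called 2265 genes in the same direction, which are 50.7% of the CD1530 calls and 54.9% of the AGN calls, and 58 genes were called in opposite directions.

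**Figure D1:**
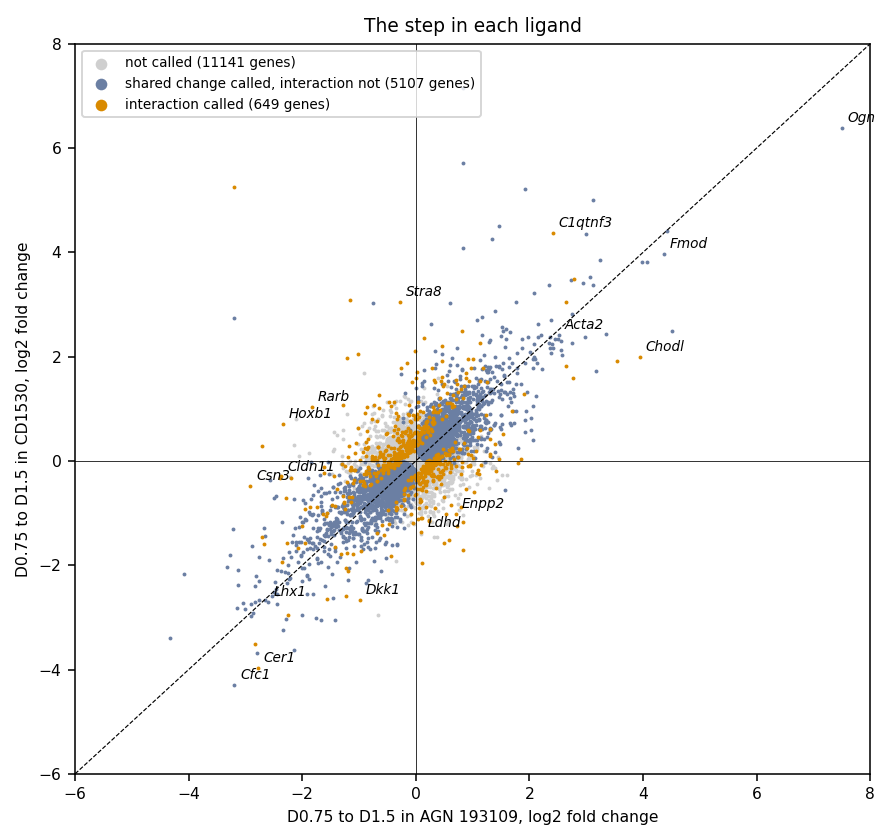
Log2 fold change from D0.75 to D1.5 in CD1530 (vertical axis) against that in AGN 193109 (horizontal axis) for the 16897 genes tested. Each point is a gene, and the dashed line marks equal steps. Colours mark genes with the difference between the steps called (649), with the shared change but not that difference called (5107), and the rest (11141). Ogn and Fmod lie at the upper right and Cfc1, Cer1 and Lhx1 at the lower left, while Stra8, Rarb and Hoxb1 lie above the line and Enpp2 and Chodl below it.

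The genes with the largest rises are described first. Ogn, which encodes the small leucine-rich proteoglycan osteoglycin (chr13:49608046-49624501, GRCm38), was almost silent at D0.75. Its levels there were 0.14, 0.328 and 0.132 CPM in CD1530 and 0.0453, 0.0999 and 0.115 CPM in AGN 193109, from 1 to 7 counts per library. At D1.5 they were 16.6, 17.5 and 17.1 CPM in CD1530 and 17.4, 14.5 and 17.3 CPM in AGN 193109. Every D1.5 library was thus far above every D0.75 library, and the ligands overlapped at D1.5. The log2 fold change was 6.80 ± 0.16 (SE derived from the F value of the quasi-likelihood test, adjusted p = 2.32e-15, n = 6 libraries per time). Because the early counts are so few, that SE can be smaller than the counting error. The ratio of summed counts is better given with its counting interval. It was 86.0 (95% interval 50.1 to 162) in CD1530 and 194 (83.0 to 600) in AGN 193109. These intervals cover counting error only.

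Fmod (chr1:134037254-134048277) was at 2.57, 3.19 and 2.51 CPM in CD1530 and 4.39, 4.99 and 5.34 CPM in AGN 193109 at D0.75. It was at 44.4, 42.6 and 42.1 CPM in CD1530 and 99.1, 98.5 and 106 CPM in AGN 193109 at D1.5. The rise was 18.4-fold (log2 4.20 ± 0.08, adjusted p = 1.76e-16). AGN 193109 was above CD1530 at both times, and the step was smaller in CD1530 by a log2 difference of -0.41 ± 0.14 (SE), which did not pass the threshold of the interaction test (adjusted p = 0.119, and 0.0757 without CD1530 D0.75 replicate 1).

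Thbs4, a thrombospondin of tendon and muscle attachments, rose 8.65-fold (log2 3.11 ± 0.13, adjusted p = 4.43e-12). Its levels went from 0.982, 0.609 and 0.616 CPM to 7.37, 9.26 and 7.1 CPM in CD1530, and from 1.77, 2.6 and 2.47 CPM to 17, 17.1 and 18.4 CPM in AGN 193109. AGN 193109 was the higher at each time. Cilp, a matrix protein of the cartilage intermediate layer, rose 9.51-fold and reached 5.95 to 7.88 CPM in CD1530 and 5.95 to 8.13 CPM in AGN 193109, so the ligands overlapped. C1qtnf3, a secreted protein with a collagen-like and a C1q-like domain, rose 11.6-fold, and here the ligands parted: the 3 CD1530 libraries were at 23.7 to 27.6 CPM at D1.5 and the AGN 193109 libraries at 6.91 to 9.7 CPM.

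Chrdl1, which encodes a secreted BMP antagonist, rose 8.87-fold from a mean of 3.99 ± 0.37 CPM (SD, n = 6) to 35.7 ± 7.4 CPM. Rflnb, whose product binds filamin, rose from 31.8 ± 2.6 to 229 ± 20 CPM. Chodl, a membrane protein with a lectin domain, rose from 1.34 ± 0.47 to 11 ± 4.6 CPM, and Ptx3, a pentraxin that binds matrix, from 0.721 ± 0.35 to 5.17 ± 2.2 CPM. The steps of Chodl and Ptx3 differed between ligands, as given below, so their SD over 6 libraries also holds the ligand difference. Ripor3 rose from 0.378 ± 0.1 to 5.95 ± 0.77 CPM. The adjusted p-values of these 5 genes lay between 1.56e-15 and 1.36e-06. A call and times without overlap were conditions for naming the genes with the largest changes, so neither is a separate result.

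**Figure D2:**
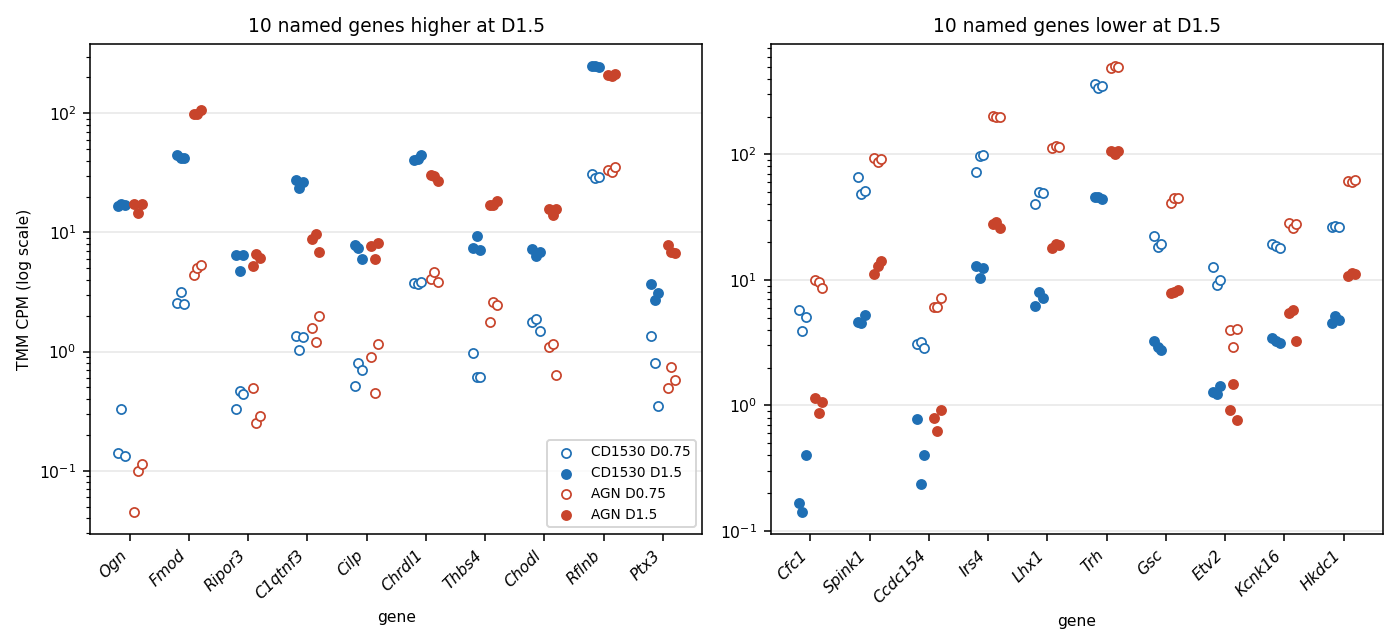
TMM CPM (log scale) in each of the 12 libraries for the 10 higher and 10 lower genes with the largest shared change. Open circles are D0.75 and filled circles D1.5, blue is CD1530 and red AGN 193109. Within each ligand the open and filled circles are separate for all 20 genes, as the rule that picked them required. Fmod and Thbs4 are higher in AGN 193109 at both times.

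Among 11 tested regulators and markers of tendon, 6 rose and 1 fell. List counts here and below are to be read beside all genes tested, of which 16.2% rose and 16.0% fell. The list's median log2 fold change was 0.22. Scx (chr15) went from 505, 431 and 446 CPM to 795, 789 and 772 CPM in CD1530, and from 438, 443 and 444 CPM to 715, 730 and 767 CPM in AGN 193109. The rise was 1.69-fold (log2 0.75 ± 0.04, adjusted p = 8.19e-11) with no overlap between the times, and the ligands differed little. Mkx, a homeobox factor needed for tendon collagen, rose by 0.68 ± 0.08 on the log2 scale. Egr1, an early growth response factor that also acts in tendon, was the member that fell, from 132 to 148 CPM at D0.75 to 78.9 to 85.1 CPM at D1.5.

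The fibrous matrix list rose more often than it fell, with 15 of 28 members higher and 4 lower (median 0.24). Fbln5 and Eln, the fibulin that assembles elastic fibres and elastin itself, had the largest rises. Fbln5 went from 4.51 ± 0.6 to 18.4 ± 3.5 CPM (SD, n = 6), a log2 fold change of 2.02 ± 0.08, and Eln from 5.2 ± 0.87 to 14.6 ± 6.6 CPM, a log2 fold change of 1.43 ± 0.13. Eln rose further in CD1530, where it reached 18.6 to 23.5 CPM, than in AGN 193109, where it reached 8.31 to 9.1 CPM. Thbs1 (0.98), Col5a2 (0.73), Fbn1 (0.72), Fbn2 (0.61), Fn1 (0.48) and Col1a2 (0.48) rose by the log2 fold changes in parentheses. Col6a1, Col6a2 and Col6a3, the chains of the beaded filament collagen VI, all fell, by 0.37, 0.40 and 0.33 on the log2 scale.

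In the cartilage list 10 of 17 members rose and 3 fell (median 0.17). The proteoglycan genes Epyc (2.77 ± 0.20) and Acan (1.56 ± 0.13), and Matn4 (1.55), had the largest log2 fold changes of those that rose, from low levels. Acan, the core protein of aggrecan, was at 1.4 to 2.64 CPM at D0.75 and at 5.32 to 7.44 CPM at D1.5. Hapln1, the link protein that ties aggrecan to hyaluronan, moved the other way, from 40.4, 42.5 and 45.6 CPM to 10.7, 9.21 and 9.94 CPM in CD1530 and from 21.6, 20.1 and 20.4 CPM to 9.33, 9.07 and 8.9 CPM in AGN 193109. Ucma (-1.55) and the chondrogenic factor Sox5 (-0.79) also fell. Col2a1, the main collagen of cartilage, rose by 0.17 ± 0.04, and Sox9, the master factor of cartilage, by 0.11 ± 0.04 on the log2 scale, in the latter case close to the threshold (adjusted p = 0.045). Leaving out any library other than CD1530 D0.75 replicate 1, AGN D0.75 replicate 3 or AGN D1.5 replicate 1 ended the call of Sox9, with adjusted p up to 0.134.

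Genes of the contractile cytoskeleton rose together. SRF and YAP are transcriptional regulators that respond to actin assembly and cell tension, and SRF binds a short promoter element called the CArG box. The list held 24 genes that are targets or regulators of YAP and SRF or belong to the contractile apparatus of smooth muscle. Of these, 20 rose and 1, Tead2, fell, with a median log2 fold change of 0.65. Without CD1530 D0.75 replicate 1, 21 rose, and without CD1530 D0.75 replicate 3 or CD1530 D1.5 replicate 2, 2 fell. In 18 of the 24 all D1.5 libraries lay above all D0.75 libraries, as they did in 6.75% of all genes tested. Acta2, smooth muscle actin, was at 26.8, 22.6 and 19.8 CPM in CD1530 and at 36.8, 36.6 and 38 CPM in AGN 193109 at D0.75. At D1.5 it was at 123, 124 and 122 CPM in CD1530 and 212, 211 and 214 CPM in AGN 193109. AGN 193109 was above CD1530 at both times, and the rise was 5.52-fold (log2 2.47 ± 0.05, adjusted p = 7.74e-16).

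Myl9, a regulatory light chain of myosin, rose 4.94-fold from 13.8 to 21 CPM at D0.75 to 72.9 to 105 CPM at D1.5. Cnn2, a calponin, rose from 258 to 290 CPM to 429 to 464 CPM, and Tpm1 and Tpm2, tropomyosins, by 0.64 and 0.72 on the log2 scale. Vcl, vinculin of focal adhesions, rose by 0.42 ± 0.08 (adjusted p = 0.00129). For Vcl the lowest D0.75 library was CD1530 replicate 1, at 123 CPM where the others were at 175 to 184 CPM, and without it the log2 fold change was 0.34. Cnn1, Tagln and Actg2 rose by 1.47, 1.81 and 2.79 but stayed under 5 CPM in all 12 libraries, and the actin genes Acta2, Actg2 and Acta1 are similar enough that reads could be shared. Srf itself was at 81.5 to 95.6 CPM at D0.75 and at 82.6 to 102 CPM at D1.5 and was not called (adjusted p = 0.243).

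RefSeq promoter sequences of GRCm38.p6 were at hand for 19 of these 24 genes. The 250 bases before the start site were searched for the strict letters of the CArG box, CC, then 6 letters A or T, then GG. This pattern is its own reverse complement, so both strands were covered. The strict pattern was found in 4 of the 19 genes (Cnn2, Myl9, Srf and Vcl), of which Srf was not called. Of 32851 promoter windows of all genes, 1.47% held it. The list was made up in part of SRF targets and Srf itself, so a higher share in it was built in. It is no result about this step. A gene can have several windows, so the count of genes and the share of windows differ in unit. The other 15 genes, Acta2, Tpm1 and Tpm2 among them, had no match, which says only that these letters are not in this window. Near matches were not counted, and the Acta2 window holds ccctatatgg and ccttgtttgg, so the gene cannot be said to lack the element. The windows of the 3 genes that rose are printed 5′ to 3′ with the match in capitals, to show the element in its place. They are Myl9 (chr2:156775214-156775463, plus strand, match from 161 to 152 bases before the start), Cnn2 (chr10:79988350-79988599, plus strand, 56 to 47 bases before) and Vcl (chr14:20929148-20929397, plus strand, 227 to 218 bases before).
Myl9: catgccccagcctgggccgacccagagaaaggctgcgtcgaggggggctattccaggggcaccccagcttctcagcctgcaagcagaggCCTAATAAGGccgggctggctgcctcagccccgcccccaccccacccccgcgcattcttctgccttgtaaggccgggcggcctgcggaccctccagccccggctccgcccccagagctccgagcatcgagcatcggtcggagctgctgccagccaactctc
Cnn2: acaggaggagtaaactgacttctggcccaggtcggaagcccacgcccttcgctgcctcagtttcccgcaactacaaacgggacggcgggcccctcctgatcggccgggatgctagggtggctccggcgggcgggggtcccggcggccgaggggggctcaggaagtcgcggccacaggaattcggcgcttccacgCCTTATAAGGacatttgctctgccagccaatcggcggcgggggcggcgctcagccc
Vcl: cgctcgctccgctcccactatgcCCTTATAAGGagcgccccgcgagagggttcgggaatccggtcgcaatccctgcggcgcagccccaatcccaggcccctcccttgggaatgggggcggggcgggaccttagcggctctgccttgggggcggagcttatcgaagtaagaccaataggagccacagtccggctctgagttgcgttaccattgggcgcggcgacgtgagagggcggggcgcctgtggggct
The matches of Cnn2 and Vcl have the same letters. A match describes the sequence and is no measure of binding.

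The genes that fell most included early embryonic patterning factors. Lhx1, a LIM homeobox factor of the gastrula organizer and intermediate mesoderm, went from 39.9, 50.2 and 49.2 CPM to 6.14, 8.02 and 7.1 CPM in CD1530. In AGN 193109 it went from 113, 116 and 115 CPM to 18, 19.3 and 18.9 CPM. The fall was 6.27-fold (log2 -2.65 ± 0.07, adjusted p = 2.68e-15) and the steps of the ligands differed by no more than the error (log2 difference -0.10 ± 0.13, adjusted p = 0.739), with AGN 193109 the higher at each time.

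Gsc, the organizer factor goosecoid, fell 5.89-fold, from 22.4, 18.3 and 19.2 CPM to 3.24, 2.94 and 2.75 CPM in CD1530 and from 41.2, 45.1 and 45.2 CPM to 7.91, 8.02 and 8.34 CPM in AGN 193109. Cfc1, a co-receptor for Nodal, fell 11.6-fold from a mean of 7.15 ± 2.6 to 0.631 ± 0.45 CPM (SD, n = 6). Etv2, the ETS factor that starts the endothelial and blood programme, fell 5.74-fold from 7.13 ± 4 to 1.18 ± 0.29 CPM, with CD1530 (9.09 to 12.7 CPM) above AGN 193109 (2.9 to 4.08 CPM) at D0.75. Trh, thyrotropin-releasing hormone, fell from 339 to 504 CPM to 44.1 to 106 CPM.

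Irs4, an insulin receptor substrate, fell from 145 ± 61 to 19.7 ± 8.6 CPM, Hkdc1, a hexokinase-like enzyme, from 43.9 ± 19 to 7.96 ± 3.5 CPM, and Kcnk16, a potassium channel, from 23 ± 4.9 to 4.05 ± 1.2 CPM. Spink1, a secreted protease inhibitor, fell from 72.7 ± 20 to 8.77 ± 4.4 CPM and Ccdc154 from 4.75 ± 1.9 to 0.627 ± 0.26 CPM. The spread over 6 libraries in these genes holds the difference between ligands. AGN 193109 was the higher in each of them at D0.75. That all D1.5 libraries lay below all D0.75 libraries was again a condition for naming them.

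Placed in the whole time course, several of the fallen genes had risen only shortly before. Lhx1 was at 1.46 CPM in PM, at 110 in CD1530 and 134 in AGN 193109 at D0.25, and at 1.39 and 2.62 CPM at D2.5 (means of 3 libraries, scaled over the 33). Gsc was at 1.23 CPM in PM, 42 and 48 at D0.25, and 1.8 and 2.17 at D2.5. Foxa2, a factor of endoderm and organizer, was at 0.73 CPM in PM and 46.1 and 49.5 at D0.25, and it fell by 1.81 ± 0.07 on the log2 scale over the step examined. Sfrp5, a secreted Wnt antagonist, had its highest means at D0.75, 133 CPM with CD1530 and 148 CPM with AGN 193109. Lhx1 and Foxa2 were higher again at D4 in AGN 193109, at 5.84 and 14.1 CPM.

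Of the genes that rose, Ogn, Fmod, Acta2 and Scx are followed to the later times. Ogn reached 57.8 CPM with CD1530 and 32.6 with AGN 193109 by D2.5, and 219 and 106 CPM by D4. Fmod was at 147 and 607 CPM at D2.5, and at 434 and 2090 at D4. Acta2 was at 521 and 511 CPM at D2.5, and at 664 and 647 at D4. Scx had its highest mean at D2.5 in both ligands, 1190 and 1700 CPM. The levels at the other times are a description and were not tested here.

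**Figure D3:**
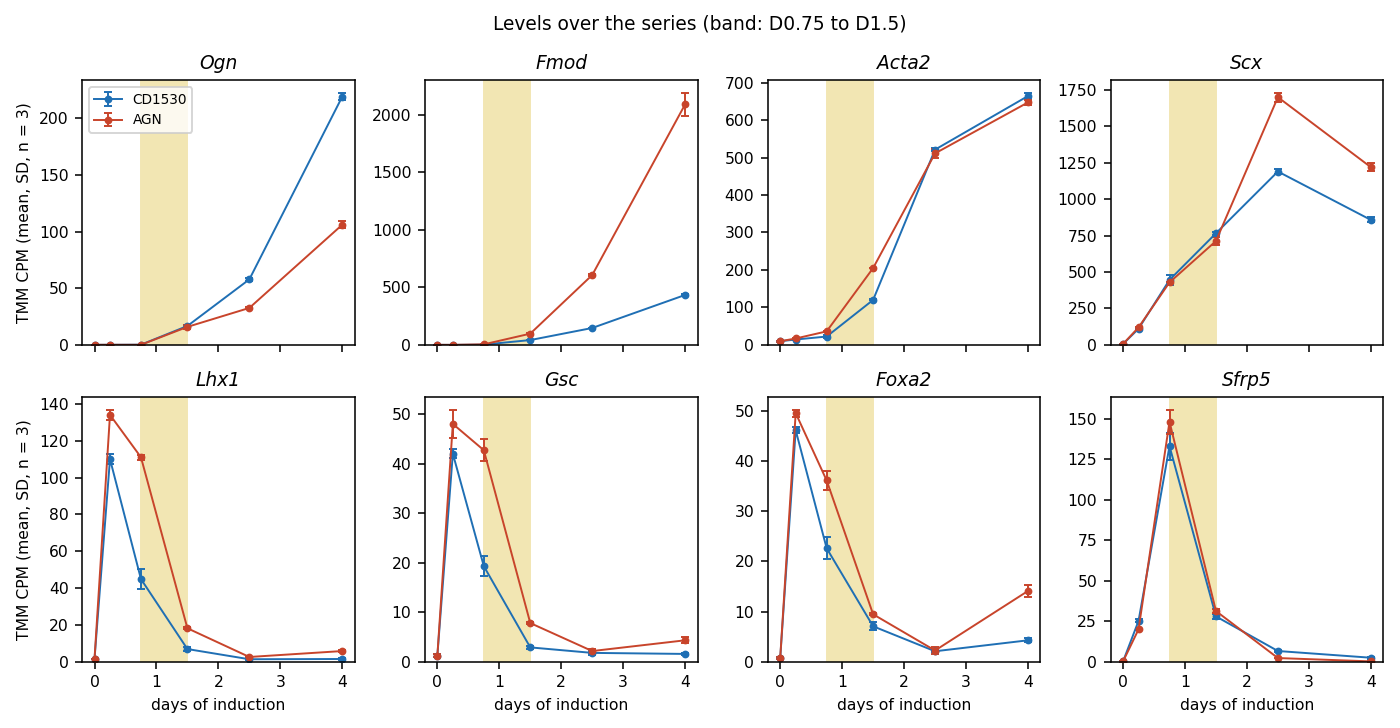
TMM CPM, scaled over all 33 libraries, against days of induction for 8 genes, as mean and SD of 3 libraries per group (blue CD1530, red AGN 193109, the common PM culture at day 0), with the step from D0.75 to D1.5 shaded. Ogn, Fmod, Acta2 and Scx rise through the band, Lhx1, Gsc and Foxa2 have their highest mean at D0.25 and fall through it, and Sfrp5 has its highest mean at D0.75.

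Lists of early embryonic genes were taken next. Of 15 tested genes of primitive streak and tailbud, which feed the paraxial mesoderm, 11 fell and 2 rose (Wnt3a and Fgf17, both under 2.5 CPM in all libraries), with a median log2 fold change of -1.15. The call of Fgf17 was lost without AGN D0.75 replicate 1 or 3, AGN D1.5 replicate 1 or CD1530 D0.75 replicate 3, which left 1 higher. On the log2 scale Mixl1, a homeobox factor of streak, fell by 2.65, Sp5, a Wnt target, fell by 1.82, the growth factor gene Fgf8 fell by 1.77, and the caudal factors Cdx2 (-1.50) and Cdx4 (-2.05) were also lower. T (brachyury), the defining gene, fell by 0.94 ± 0.13. The summed level of the list went from 112 to 113 CPM to 56.1 to 60.1 CPM in CD1530 and from 136 to 141 CPM to 82.5 to 84.9 CPM in AGN 193109.

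In presomitic mesoderm and segmentation 6 of 13 genes fell and 2 rose (median -0.45), with Tbx6 and Mesp2 under 1 CPM on average at both times. Cer1, a secreted antagonist of Nodal, BMP and Wnt, had the largest change of that list (log2 -3.08 ± 0.15, adjusted p = 2.3e-09). It went from 25.9, 29.4 and 28.1 CPM to 1.62, 1.57 and 2.09 CPM in CD1530 and from 227, 218 and 239 CPM to 34.5, 33 and 31.8 CPM in AGN 193109. The AGN 193109 libraries at D1.5 were thus above the CD1530 libraries at D0.75, while within each ligand the times did not overlap.

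Markers of other cell types moved as well, and their part in the falls just given was not tested. Of 17 endoderm and epithelium genes 13 fell and 2 rose (median -0.72, 14 lower without CD1530 D0.75 replicate 1), and their summed level went from 1380 to 1440 CPM to 956 to 993 CPM in CD1530 and from 2010 to 2090 CPM to 1440 to 1480 CPM in AGN 193109. Foxa1 (-1.38) and Sox17 (-1.93), factors of gut endoderm, and the simple epithelial keratins Krt8 (-0.72) and Krt18 (-0.69) were among them.

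Of 28 endothelial and blood genes 19 fell and 5 rose (median -0.42), and without CD1530 D0.75 replicate 1 18 fell and 6 rose. The embryonic globin gene Hbb-bh1 fell by 1.55 ± 0.08 and Hba-x by 1.49 ± 0.09, as did the blood factors Tal1 (-1.51) and Gata1 (-1.62). The globins belong to clusters of similar genes whose reads the counting could have split. The vascular receptor gene Flt1 fell by 1.33 ± 0.11. The ETS factors Erg and Fli1 rose by 1.07 ± 0.06 and 0.61, and the endothelial genes Tie1 (0.75), Cdh5 (0.24) and Pecam1 (0.24) rose. Erg was at 8.15 to 15.5 CPM at D0.75 and at 17.6 to 29.2 CPM at D1.5. Other endothelial members fell, among them Kdr (-0.27), Cldn5 (-0.64) and Cd34 (-0.94), so the endothelial members did not move one way.

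In the sclerotome and somite list 9 of 18 genes rose and 3 fell (median 0.20), and 8 rose without CD1530 D0.75 replicate 1. Pax1, the leading sclerotome factor, rose 2.85-fold, from 3.27, 3.52 and 3.25 CPM to 8.77, 7.64 and 7.54 CPM in CD1530 and from 4.62, 3.35 and 4.13 CPM to 13, 13.6 and 13.9 CPM in AGN 193109. Its relative Pax9 rose by 0.61 ± 0.08, and Foxc1, Foxc2, Meox1 and Twist1 by 0.31 to 0.43 on the log2 scale. Tbx18 (-0.57) and Pdgfrb (-0.16) were among those that fell.

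In the dermomyotome and muscle list 9 of 18 genes fell and 2 rose (median -0.61). Pax3, the factor of dermomyotome, fell 3.6-fold from 4.96 to 6.89 CPM to 1.02 to 2.04 CPM. Myog, the myogenic factor, fell by 1.64 ± 0.12 and Sim1 by 1.28 ± 0.16. Acta1 and Six4 were those that rose. The defining muscle gene Myod1 was at 0.168 to 1.49 CPM across the 12 libraries.

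Of 19 factors of lateral plate, limb and heart 9 fell, 2 rose and 8 were not called. Gata4 (-1.33), Gata5 (-2.30), Gata6 (-1.43) and Isl1 (-1.56) fell. The 2 that rose were Dlx5 and Tbx2. Tbx2, a repressor of the T-box family that is active in limb and heart, rose 5.24-fold, from 9.63, 10.3 and 10.8 CPM to 53.6, 54.8 and 48.4 CPM in CD1530 and from 5.3, 4.74 and 5.63 CPM to 29.4, 25.8 and 30 CPM in AGN 193109. CD1530 was above AGN 193109 at each time, and the steps of 2.35 and 2.44 on the log2 scale did not differ beyond the error (difference -0.09 ± 0.13).

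Of 14 factors of intermediate mesoderm and connective tissue 10 rose (9 without CD1530 D0.75 replicate 1) and 1 (Lhx1) fell, with a median of 0.56. Wt1, a factor of kidney and coelomic lining, rose by 2.13 ± 0.23 from about 1 CPM, to 4.61 to 6.79 CPM in CD1530 and 1.78 to 3.22 CPM in AGN 193109. The nuclear factor I genes Nfia (0.88), Nfib (0.86) and Nfix (0.64) rose together, and Hic1, a repressor found in connective tissue progenitors, rose by 0.76 ± 0.04.

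**Figure D4:**
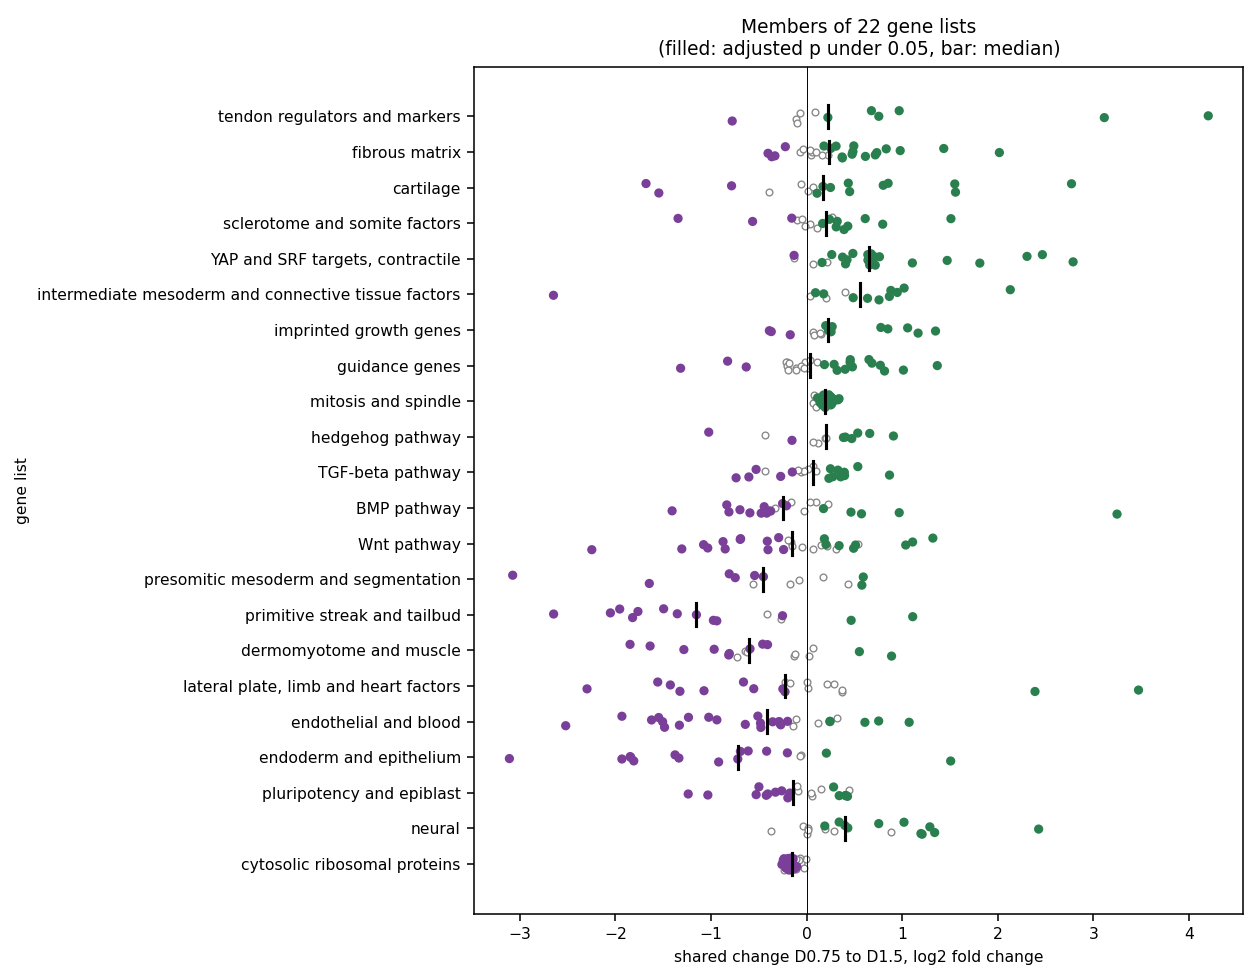
Shared log2 fold change from D0.75 to D1.5 (horizontal axis) of the tested members of 22 gene lists (vertical axis), with called members filled (green higher, purple lower), other members open and the median as a bar. The contractile and the intermediate mesoderm lists lie to the right (medians 0.65 and 0.56), primitive streak and tailbud and the endoderm list to the left (medians -1.15 and -0.72), and the ribosomal protein list is narrow and just below 0.

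Hox genes, which lie in 4 clusters in the order in which they pattern the body from head to tail, are grouped here by that position. Of 14 genes of paralogue groups 1 to 5, 10 rose and none fell (median 0.45). Without CD1530 D0.75 replicate 1, 1 of these 14, Hoxc4, was called lower (-0.32). Of 8 genes of groups 6 to 8, 1 rose (Hoxd8). Of 16 genes of groups 9 to 13, 7 fell and 1 rose (median -0.30). Hoxa2 rose from 4.85 to 6.73 CPM to 7.82 to 10.6 CPM and Hoxa5 by 0.65 ± 0.11, while Hoxa9 (-0.80), Hoxa10 (-0.77), Hoxd11 (-0.76) and Hoxc11 (-1.34 ± 0.15) fell. Hoxb13, the one that rose, was at no more than 0.855 CPM in any library, and its call was lost in the fit of 4 group means (adjusted p = 0.0561) and in the fit with no ligand term (adjusted p = 0.238, both edgeR).

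The anterior genes did not all move alike in the ligands. Hoxa4 and Hoxb1 had steps that differed between ligands, as given below for Hoxb1. For Hoxa10 and Hoxc11 the differences between the steps were 0.02 ± 0.24 and 0.02 ± 0.33 and were not called. Transcripts within the clusters overlap and antisense transcripts exist, and the strand setting of the counting is not given in the sources used here, so these levels are less certain.

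**Figure D5:**
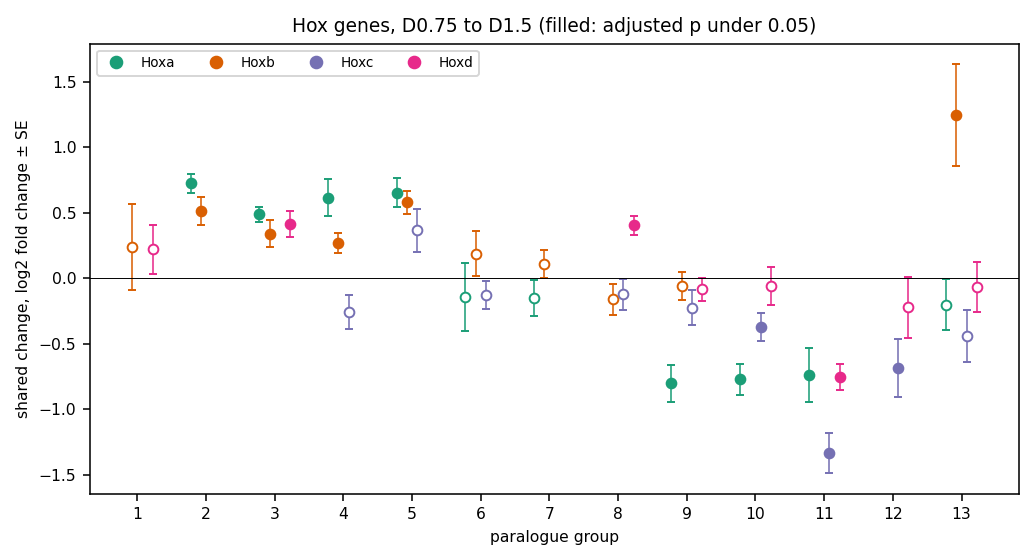
Shared log2 fold change ± SE of 37 Hox genes (vertical axis) by paralogue group (horizontal axis, group 1 lies at the head end of a cluster), coloured by cluster and filled where called. Called genes of groups 1 to 5 lie above 0 and those of groups 9 to 12 below 0, with Hoxb13 above 0.

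Signalling pathways were described in turn. In the hedgehog list 6 of 13 genes rose (7 without CD1530 D0.75 replicate 1) and 2 fell. The target and receptor genes Gli1 (0.47 ± 0.06), Ptch1 (0.38 ± 0.08) and Hhip (0.40 ± 0.11), the factor Gli2 (0.66) and the co-receptors Gas1 (0.91) and Boc (0.53) rose. The ligand Ihh fell from 0.499 to 1.85 CPM to 0.096 to 1.33 CPM, and Sufu, the inhibitor of Gli factors, by 0.15. The call of Sufu was lost when any library other than CD1530 D0.75 replicate 1 or CD1530 D1.5 replicate 3 was left out, with adjusted p up to 0.095. Ptch1 and Hhip had their lowest level in CD1530 D0.75 replicate 1, and without it they rose by 0.31 and 0.30.

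In the TGF-beta list 9 of 21 genes rose and 5 fell (6 without CD1530 D0.75 replicate 1), and in 8 the step differed between ligands. The ligand Tgfb3 rose from 32.4 to 37 CPM to 72.5 to 78.9 CPM in CD1530 and to 50.4 to 55.1 CPM in AGN 193109, while Tgfb1, which is also supplied in the medium as protein, fell by 0.53 ± 0.05. The receptor gene Tgfbr2 and the latent binding protein gene Ltbp1 rose by 0.40 and 0.53, and the co-receptor gene Tgfbr3 fell by 0.74. The feedback genes Pmepa1 and Skil rose by 0.27 and 0.23.

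BMP genes fell more often than they rose, with 12 of 23 lower and 5 higher (median -0.25, 6 higher without CD1530 D0.75 replicate 1). The ligand Bmp2 fell 2.65-fold, from 66.3, 70.2 and 73.5 CPM to 26.7, 28.2 and 27.5 CPM in CD1530 and from 97.1, 96.7 and 95 CPM to 35.1, 35.4 and 34.2 CPM in AGN 193109. Bmp7 (-0.81), the antagonists Chrd (-0.70), Nog (-0.59) and Grem1 (-0.48), and the target genes Id1 (-0.40), Id3 (-0.42) and Id4 (-0.84) fell. Bmp4 rose by 0.97 ± 0.11, to 28.4 to 31.1 CPM in CD1530 and 44.9 to 47.7 CPM in AGN 193109, a step that differed between ligands (adjusted p = 0.000782).

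In the Wnt list 12 of 29 genes fell (11 without CD1530 D0.75 replicate 1) and 8 rose (median -0.15). The feedback targets Axin2 (-0.87 ± 0.08), Nkd1 (-1.03), Rnf43 (-1.08), Lgr5 (-1.31 ± 0.11) and Notum (-0.40) fell, and the antagonist Sfrp5 fell 4.75-fold, from 132 to 161 CPM to 26.7 to 33.9 CPM. Sfrp1 fell by 0.69. Other antagonists rose, Dkk2 by 1.32 ± 0.09 and Dkk3 by 1.11 ± 0.09, as did the receptor gene Fzd1 (1.04). Of 19 FGF genes 7 rose and 6 fell, and 8 rose and 8 fell without CD1530 D0.75 replicate 1. Fgf5 and Fgf10 fell by 2.00 and 1.24, and the feedback genes Dusp6 and Spry4 by 0.25 and 0.19, while Spry1 rose by 0.45. Of 14 Notch genes 5 fell, among them the receptor gene Notch4 (-0.96) and the targets Hey1 (-0.60) and Hes1 (-0.34), and the DNA-binding partner Rbpj (0.31) rose, with 2 higher and 6 lower when CD1530 D0.75 replicate 1 was left out.

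Of 34 genes of mitosis and spindle 27 rose (30 without CD1530 D0.75 replicate 1) and none fell, by small amounts (median 0.20), for example Cdc20 from 194 to 221 CPM to 242 to 272 CPM and Plk1 by 0.26 ± 0.05. The largest rise in that list was 0.34 on the log2 scale. Of 41 replication genes 9 rose (15 without CD1530 D0.75 replicate 1), where 16.2% of all genes tested rose. Of 20 immediate early genes 9 fell and 2 rose, with Egr3 (-1.24 ± 0.08) and Junb (-0.84 ± 0.04) the largest falls.

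Imprinted genes that act on growth rose in 9 of 17 cases and fell in 3 (median 0.23). Mest was at 439, 480 and 469 CPM in CD1530 and 491, 487 and 474 CPM in AGN 193109 at D0.75, and at 1180, 1200 and 1220 CPM and 1220, 1230 and 1170 CPM at D1.5. The rise was 2.55-fold (log2 1.35 ± 0.03, adjusted p = 2.68e-15), and the ligands overlapped at D1.5. Igf2, a fetal growth factor, rose by 1.17 ± 0.13 and Plagl1 by 1.06 ± 0.06. Igf2 was lowest in CD1530 D0.75 replicate 1 (59.5 CPM, the others 79.2 to 112 CPM), and without that library it rose by 1.04. Peg10 (-0.39) and Grb10 (-0.37) fell. Of the 13 genes of the IGF axis 7 rose and 3 fell, with Igf1 up by 0.86 and Igfbp2 down by 0.38.

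Cytosolic ribosomal protein genes were lower in 26 of 59 cases and higher in none, with a median log2 fold change of -0.16. These short transcripts are the ones that CD1530 D0.75 replicate 1 holds in excess: the summed level of the list was 23900 to 29800 CPM in the 3 CD1530 D0.75 libraries, 24300 to 24900 CPM in AGN 193109 at D0.75, and 21800 to 22400 and 22500 to 24200 CPM at D1.5. Without that library 31 were lower and the median was -0.09, and leaving out CD1530 D1.5 replicate 1 gave 13, replicate 2 gave 16, replicate 3 gave 15 and leaving out AGN D1.5 replicate 2 gave 17. Of 44 genes of oxidative phosphorylation 8 fell, a share near the 16.0% of all genes tested, and none rose, while without CD1530 D0.75 replicate 1 the counts were 10 and 6, and leaving out any other library but AGN D0.75 replicate 1 or a CD1530 D0.75 replicate left 3 to 5 lower. Reads of ribosomal protein genes can also be shared with pseudogenes.

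Other housekeeping lists split or moved little. Of all genes tested 16.2% rose and 16.0% fell, and several of the counts below are near these shares. Of 30 genes of glycolysis and the hypoxia response 12 fell and 5 rose (6 without CD1530 D0.75 replicate 1), with the glucose transporter gene Slc2a3 (-0.49) lower and the peptide hormone gene Adm (0.78) higher. Of 34 genes of folding in the endoplasmic reticulum and collagen processing 10 rose, among them Pcolce (0.55), an enhancer of procollagen cleavage, and 10 fell, among them the chaperone gene Hspa5 (-0.12), against 11 and 12 without that library. In sterol and fatty acid synthesis 8 of 34 genes fell and 3 rose (13 and 4 without CD1530 D0.75 replicate 1). Of 25 p53 targets and cell death genes 9 rose and 4 fell (11 and 5 without that library), and of 20 genes of G1 cyclins, CDK inhibitors and Myc 6 rose and 3 fell (7 and 5 without that library). Of 30 ribosome biogenesis genes 9 rose, but 15 without CD1530 D0.75 replicate 1 and 4 or 5 without any 1 of the AGN 193109 libraries. The median log2 step of that list was -0.02 in CD1530 and 0.19 in AGN 193109. In 6 of its genes the steps differed between ligands, each with CD1530 below.

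Among proteases of the matrix and their inhibitors, Mmp9, gelatinase B, fell 3-fold, from 846, 871 and 874 CPM to 303, 307 and 295 CPM in CD1530 and from 443, 445 and 441 CPM to 138, 144 and 140 CPM in AGN 193109, with CD1530 higher at both times. Adamts5, an aggrecanase, rose 5.82-fold, from 2.07 to 3.15 CPM to 13.1 to 17.4 CPM, and in total 8 of 19 genes rose and 6 fell. Of 29 axon guidance genes, which also steer mesenchyme and vessels, 13 rose and 3 fell. Sema3a rose by 1.37 ± 0.06 and Robo1, a receptor for Slit proteins, by 1.01 ± 0.11. Slit1 (-1.32), Unc5c (-0.83) and Plxnd1 (-0.63) fell, and without CD1530 D0.75 replicate 1 the list had 9 lower genes. Among 25 cadherin and adhesion genes 12 rose and 5 fell (6 without CD1530 D0.75 replicate 1), with Cdh11 up by 0.45 and Cdh1 down by 0.20. Of 19 neural genes 11 rose and none fell (1 fell without AGN D1.5 replicate 1 or CD1530 D0.75 replicate 3), Sox3 by 1.34 and Pax6 by 1.29, from levels under 4 CPM.

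The steps differed between ligands in 649 genes, as tested by the interaction of ligand and step. In 383 (2.27%) the CD1530 step lay above the AGN 193109 step and in 266 (1.57%) below. By the sign of the estimates, whether or not a step was called, 302 of them had steps in the same direction and 347 in opposite directions. Over all genes tested, 58 were called in both steps in opposite directions. This count moved with single libraries. It was 1506 without CD1530 D0.75 replicate 1, 392 without AGN D0.75 replicate 1 or CD1530 D1.5 replicate 2, 397 without AGN D1.5 replicate 3 and 409 without CD1530 D1.5 replicate 3. Of the 5452 genes of the shared change, 345 (6.33%) were among the 649.

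Known targets of the retinoic acid receptors were among the genes with the largest differences. Stra8, a retinoic acid response gene of germ cells, rose in CD1530 from 7.3, 5.95 and 6.07 CPM to 52.3, 52.8 and 55.3 CPM and was at 0.096 to 0.317 CPM in all 6 AGN 193109 libraries. The steps differed by 3.33 ± 0.52 on the log2 scale (adjusted p = 0.00108). Rarb, the receptor gene that its own ligands induce, went from 6.78, 8.95 and 8.44 CPM to 16.8, 16.3 and 16.6 CPM in CD1530 and from 2.31, 2.35 and 2.41 CPM to 0.626, 0.816 and 0.511 CPM in AGN 193109 (difference 2.87 ± 0.24). Hoxb1 parted in the same way (difference 3.04 ± 0.46), from 4.83 to 5.99 CPM to 7.99 to 10.2 CPM in CD1530 and from 0.976 to 1.75 CPM to 0.096 to 0.46 CPM in AGN 193109. Rarb and Hoxb1 moved in opposite directions in the ligands, and the shared fit called neither (adjusted p = 0.346 and 0.628). In the edgeR fit of 4 group means both were called lower (adjusted p = 0.0214 and 0.0134), so their shared direction depended on the model.

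Csn3, a casein gene, and Cldn11, a tight junction gene, had log2 steps of -2.92 and -2.37 in AGN 193109 and were at 10.6 to 12.3 CPM and 4.8 to 6.27 CPM in CD1530 at D1.5. On the other side were Chodl (difference -1.95 ± 0.25), Enpp2 (-1.71 ± 0.08), Dkk1 (-1.68 ± 0.15), Ptx3 (-1.63 ± 0.44) and Ldhd (-1.47 ± 0.21). For Ptx3 the adjusted p was 0.0473, and it was between 0.0575 and 0.149 when any library other than CD1530 D0.75 replicate 3 was left out. Enpp2, the enzyme autotaxin, fell in CD1530 from 19.4, 19.1 and 19 CPM to 9.72, 9.64 and 9.23 CPM and rose in AGN 193109 from 37.3, 38 and 38.2 CPM to 61.5, 61.1 and 62.1 CPM. Dkk1, a Wnt antagonist, fell in both, to 2.56 to 2.97 CPM in CD1530 and to 10.7 to 11.4 CPM in AGN 193109.

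In the retinoid list 8 of 22 genes rose and 5 fell, and the steps of 6 differed, in each with CD1530 above AGN 193109. The receptor gene Rarg rose by 0.63 ± 0.04 (difference between the steps -0.13 ± 0.08, not called), from 93 to 101 CPM to 139 to 147 CPM in CD1530 and from 48 to 51.8 CPM to 75.6 to 84.8 CPM in AGN 193109. Cyp26a1, which degrades retinoic acid, fell from 187, 167 and 167 CPM to 76.5, 73.3 and 70.3 CPM in CD1530 and from 72.1, 74 and 74.2 CPM to 17.9, 18.5 and 18.4 CPM in AGN 193109. Dhrs3, a retinal reductase, rose in CD1530 (1.03) and fell in AGN 193109 (-0.86).

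Among 22 pluripotency and epiblast genes the shared change called 5 higher and 11 lower (6 and 12 without CD1530 D0.75 replicate 1), and the steps of 13 differed between ligands, with CD1530 below AGN 193109 in 10. The summed level of the list was 3560 to 3850 CPM in CD1530 and 3830 to 3970 CPM in AGN 193109 at D0.75, and 3460 to 3500 and 4180 to 4300 CPM at D1.5. Dnmt3b, a DNA methyltransferase of the epiblast, was at 157, 173 and 179 CPM and then 146, 143 and 137 CPM in CD1530, and went from 336, 337 and 352 CPM to 739, 754 and 728 CPM in AGN 193109. Lefty1, a Nodal antagonist, moved the other way, with a fall by 0.32 in CD1530 and by 2.19 in AGN 193109. Pou5f1 was at 325 to 403 CPM across the 12 libraries and Nanog fell by 0.20 ± 0.03, so transcripts of these defining genes were present at both times.

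Genes of the 2-cell-like state, a rare state of stem cells marked by the Zscan4 family, were detected mainly in CD1530 at D1.5. Zscan4d had 1, 1 and 1 counts in CD1530 and 3, 0 and 0 in AGN 193109 at D0.75. It had 47, 35 and 39 counts in CD1530 and 0 in each AGN 193109 library at D1.5. The ratio of summed counts in CD1530 was 42.9 (95% interval 14.3 to 211, counting error only). The summed level of the list was 9.1 to 10.1 CPM in CD1530 at D1.5 against at most 0.672 CPM in any other library. The 6 members that passed the filter on low counts did so through CD1530 at D1.5 and the other 4 did not pass it, so no count of calls is given for this list. The Zscan4 genes are near-identical copies, and reads could have been split among them.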

How the data were processed

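The deposited values are raw counts of reads per gene, which the authors made from paired-end libraries with STAR, the mouse genome GRCm38 and featureCounts; annotation release and strand setting are not given in the sources used here. Counts were scaled by TMM, filtered with filterByExpr (16897 of 17120 genes kept) and tested with edgeR's quasi-likelihood test (edgeR 4.0.16, limma 3.58.1, R 4.3.3), with Benjamini-Hochberg adjustment over all genes tested and a threshold of 0.05. The shared change was fitted as ligand plus time over 12 libraries, 6 at each time. The step in each ligand and their interaction came from the 4 group means. Each SE of a log2 fold change is its absolute value divided by the square root of the test's F value. Where counts are few, such an SE can understate the error. Totals were 17509535 to 22775275 counts per library, and the biological coefficient of variation was 7.01%. The samples are biological replicates per the study's methods.

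The genes named first were the 10 higher and 10 lower with the largest shared change (called, averaging 50 or more counts over the 12 libraries, times not overlapping, predicted genes and pseudogenes left out) and the 5 in each direction with the largest called interaction, whose steps did not overlap between ligands in any pairing of libraries. Other genes are called members with large changes, or defining members, of 39 lists; a gene in more than 1 list counts in each. Members and lists were chosen with earlier results of these data known. Of 963 list genes, 29 were not analysed here and 15 were below the filter. Some list members are counted but not reported here by name, and 1 is left off the Hox plot. Gene positions are from GENCODE M21, promoters from RefSeq (GRCm38.p6). Counting intervals are exact at 95%. Alternatives were DESeq2 1.42.0, other scalings and filters, a fit of all 33 libraries, the replicate number as a block, no ligand term and leaving out each library. Replicate numbers did not pair the samples: of 18 same-numbered pairs of libraries 1 had a correlation over 0.1. The fits were tested on simulated counts, which held no deviating library and no trend along gene length, so that test does not cover those features.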

Additional observations from a re-analysis of the deposited data

Results flagged for a closer look

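The step from D0.75 to D1.5 differed between CD1530 and AGN 193109 in 649 genes, by the test of the interaction itself. The 10 genes named for the largest differences are given as the CD1530 step minus the AGN 193109 step on the log2 scale. CD1530 lay above for Stra8 (3.33), Hoxb1 (3.04), Rarb (2.87), Csn3 (2.44) and Cldn11 (2.08). It lay below for Chodl (-1.95), Enpp2 (-1.71), Dkk1 (-1.68), Ptx3 (-1.63) and Ldhd (-1.47). Each group held 3 libraries, and Dixon's test of single outlying values was not run.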

How the results depend on the processing

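Under every alternative except the stricter fold threshold, the counts of the shared change and of the CD1530 step stayed within 1.5 times the reported ones. When a log2 fold change of 1 or more in either direction was also required, 644 genes were called in the shared change, 730 in CD1530, 704 in AGN 193109 and 119 in the interaction. With all 33 libraries in the fit the interaction called 1541 genes. Fits that each lacked 1 library gave 4722 to 6547 genes for the shared change, 3209 to 4992 for CD1530, 3062 to 6222 for AGN 193109 and 392 to 1506 for the interaction. The highest value of each came from leaving out CD1530 D0.75 replicate 1, and the next highest were 5285, 4725, 4282 and 754. With the replicate number as a block, although the numbers did not pair the samples, the counts were 5152, 4301, 3951 and 569.

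Of 4288 values of the shared change of named genes under alternatives, 4212 kept direction and call, 65 lost the call, 5 gained it and 6 reversed. Of the 65, 33 came from the fit with no ligand term, in which the difference between ligands adds to the spread. The reversals were Hoxb1 (-0.81 with 4 group means, -0.65 in DESeq2, -0.81 with 33 libraries) and Rarb (-0.40, -0.31 and -0.40), which move in opposite directions in the ligands. The reversed values were called in edgeR with 4 group means (adjusted p = 0.0134 for Hoxb1, 0.0214 for Rarb) and with 33 libraries (0.00378 and 0.0218). In DESeq2 they were not called (adjusted p = 0.392 and 0.659). Hoxb13 and Wnt3a lost the shared call with 4 group means (adjusted p = 0.0561 and 0.307, edgeR). Zscan4d passed the filter through CD1530 at D1.5, so its shared call is not read as a result. It was lost with 4 group means (adjusted p = 0.835, edgeR), with 33 libraries (0.812, edgeR) and in DESeq2 (0.196). Depth limits genes with few counts, such as Tnmd and the Zscan4 genes.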

Other observations

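The small leucine-rich proteoglycans, the family of Ogn and Fmod, were set side by side after their values had been seen. Of 15 tested genes of the family 8 were called higher at D1.5 and 2, Optc and Tsku, lower. Of all genes tested, 16.2% rose and 16.0% fell. The 8 include Ogn and Fmod, which led to the choice of the family, so that part of the count was built in. Neighbours on chromosome 13, which lie in a cluster with Ogn, were also higher: Ecm2 by 2.47 ± 0.30 (SE) and Aspn by 0.96 ± 0.30 on the log2 scale, from means of 0.155 and 0.523 CPM over 6 libraries. In the cluster on chromosome 10 the members did not move alike. Epyc rose by 2.77 ± 0.20, while its neighbours Lum (-0.07 ± 0.04, adjusted p = 0.168) and Dcn (0.16 ± 0.09, adjusted p = 0.207, both edgeR) were not called, at means of 111 and 131 CPM at D0.75. Bgn, abundant at 550 CPM at D0.75, rose to 774 CPM.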
